A study of Homo sapiens with 50 samples.

Results

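The 35 genes described here encode aminoacyl-tRNA synthetases, 19 of the cytosol and 16 of the mitochondrion, out of 18239 genes tested. Members were taken by symbol. A symbol ending in 2 put a gene in the mitochondrial class and every other symbol put it in the cytosolic class, and each gene was read through its brightest probe set, judged by the mean of the 50 arrays. All 35 members were found, and 27 of them had several probe sets. GARS1 and KARS1 sit in the cytosolic class by this rule, although their transcripts serve both compartments.

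The cells were A549, a human lung adenocarcinoma line, and their total RNA was hybridised to Affymetrix HG-U219 arrays, which read transcript abundance with short probes. A starting group (preSwitch, 3 arrays) was harvested in full medium, RPMI, before any change. The other cells were moved to BME medium with nonessential amino acids, either with serine (plusSer) or without it (minusSer), and after 24 h received 1 uM compound 16 or its solvent DMSO. Compound 16 activates pyruvate kinase M (PKM), the last enzyme of glycolysis. Harvests followed at 0, 1.5, 6 and 24 h after that addition, so a 0 h array had already spent 24 h in its new medium. This gave 17 groups of 3 arrays, except the plusSer 1.5 h DMSO group with 2. All groups are 1 cell line, and whether a group's arrays are separate cultures is not stated in the labels, so p-values measure the spread between arrays, which may be technical.

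Aminoacyl-tRNA synthetases join each amino acid to its transfer RNA, the step that lets the ribosome read the genetic code. Human cells keep separate sets for cytosolic and mitochondrial translation, both encoded in the nucleus. When an amino acid runs short, uncharged tRNA activates the kinase GCN2 (EIF2AK4), translation initiation slows, and the transcription factor ATF4 is made. ATF4 binds composite C/EBP-ATF elements at amino acid biosynthesis genes such as ASNS, asparagine synthetase, and at genes of many cytosolic synthetases.

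The promoters of the members were searched for the 8-letter element TGATGNAA on both strands, in the 300 bases from 250 before to 50 after the annotated gene start (RefSeq, GRCh38.p14). Promoter entries matched 30 of the 35 members. A match was present in 7 of 16 matched cytosolic genes (43.8%) and in 1 of 14 matched mitochondrial genes (7.14%), beside 1217 of all 27305 genes with a promoter in the table (4.46%). Among the tested genes with a promoter, 522 of 14492 had a match (3.6%). The 8 matches are printed 5′ to 3′ on the strand of the gene, with the element in capitals, because 7 of the 8 belong to cytosolic members whose signal rose under compound 16 at 24 h without serine.
AARS1: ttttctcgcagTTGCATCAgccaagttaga
CARS1: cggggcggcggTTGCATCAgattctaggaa
GARS1: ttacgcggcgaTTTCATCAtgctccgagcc
IARS1: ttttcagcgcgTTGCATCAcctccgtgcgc
MARS1: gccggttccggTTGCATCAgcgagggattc
NARS1: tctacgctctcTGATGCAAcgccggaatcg
TARS1: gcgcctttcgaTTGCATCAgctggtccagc
YARS2: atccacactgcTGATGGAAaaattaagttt

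The stretches lie at chr16:70289675-70289704 on the minus strand for AARS1, chr11:3057407-3057436 on the minus strand for CARS1, chr7:30594834-30594863 on the plus strand for GARS1 and chr9:92293692-92293721 on the minus strand for IARS1. Those of MARS1 (chr12:57488053-57488082, plus strand), NARS1 (chr18:57621804-57621833, minus strand), TARS1 (chr5:33440956-33440985, plus strand) and YARS2 (chr12:32756076-32756105, minus strand) follow. In 6 of the 7 cytosolic matches the letters were TGATGCAA or its reverse complement TTGCATCA, and GARS1 carried TTTCATCA, the reverse complement of TGATGAAA. The YARS2 match, TGATGGAA, lay from -197 to -190 relative to the start. The cytosolic matches clustered at the start of the gene: GARS1 from -33 to -26, IARS1 from -13 to -6, MARS1 from -4 to 3, CARS1 from -2 to 5, TARS1 from 2 to 9 and NARS1 from 14 to 21, while that of AARS1 lay from -187 to -180. With only the 250 bases before the start, 3 of 16 cytosolic and 1 of 14 mitochondrial genes kept a match. The share was 3.89% of all genes with a promoter and 3.15% of the tested ones. The stricter TGATGCAA was present in 6 of 16 cytosolic genes (37.5%) and 0 of 14 mitochondrial genes. It was present in 1.08% of all genes with a promoter and 0.938% of the tested ones. A match is a description of letters, not a bound site.

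Each sample was 1 array of deposited log2 signals, whose medians lay between 5.4 and 5.54, and the number of arrays limits the precision. A difference was called when limma's Benjamini-Hochberg adjusted p over all 18239 genes was under 0.05, and ± after a difference is its standard error. The cytosolic probe sets were brighter (median of mean signals 10.34, at the 88.4th percentile of all genes) than the mitochondrial ones (8.24, at the 65.9th percentile), and no member lay under the 40th percentile. The median standard error of a compound difference without serine at 24 h was 0.0649 in the cytosolic class and 0.094 in the mitochondrial class. The labelled cell type was checked with epithelial markers, of which KRT8, KRT18, KRT19, EPCAM and CDH1 lay between the 80.9th and 100th percentiles, and with 9 leukocyte, endothelial and fibroblast markers, which lay between the 7.5th and 47th.

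Under compound 16 without serine, most cytosolic synthetases rose and no mitochondrial one was called. At 24 h without serine, 12 of 19 cytosolic members rose, where 2.97% of all genes were called higher and 4.08% lower, and 0 of 16 mitochondrial members were called. With arrays centred on their medians, the split over all genes moved from 542 higher and 745 lower to 678 and 598, and the class counts were again 12 and 0. The median difference was 0.58 in the cytosolic class, with a range from -0.11 to 1.29, and -0.02 in the mitochondrial class, with a range from -0.18 to 0.25, beside 0.00 over all genes.

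MARS1, the methionyl-tRNA synthetase, showed the largest difference of the 35 members. Its log2 signals were 11.06, 11.17 and 11.02 under compound 16 and 9.80, 9.74 and 9.84 in DMSO. The groups lay more than 1 log2 unit apart, with a difference of 1.29 ± 0.07 (2.44-fold, limma adjusted p = 1.09e-17). CARS1, which charges cysteine, read 10.13, 10.09 and 10.02 under compound 16 against 8.94, 8.72 and 8.73 in DMSO. That difference was 1.28 ± 0.06 (limma adjusted p = 9.53e-18), close to that of MARS1.

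SARS1 charges serine itself, the amino acid left out of the medium. Its signals were 11.37, 11.36 and 11.30 under compound 16 and 10.25, 10.21 and 10.23 in DMSO without serine at 24 h. No array of one group came near the other, and the difference was 1.11 ± 0.07 (2.16-fold, limma adjusted p = 6.57e-16). SARS2, the mitochondrial seryl-tRNA synthetase, read 7.37, 7.64 and 7.45 under compound 16 and 7.72, 7.54 and 7.73 in DMSO. These arrays overlapped, and the difference of -0.18 ± 0.10 was not called (limma adjusted p = 0.368, 95% interval -0.38 to 0.03). For serine, then, the cytosolic enzyme rose and the interval of the mitochondrial one ended at 0.03.

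The other cytosolic members that rose at 24 h without serine were YARS1 for tyrosine (1.20 ± 0.08), AARS1 for alanine (1.09 ± 0.08), GARS1 for glycine (1.04 ± 0.06), WARS1 for tryptophan (0.90 ± 0.06), EPRS1 for glutamate and proline (0.80 ± 0.08), IARS1 for isoleucine (0.80 ± 0.05), TARS1 for threonine (0.58 ± 0.06), NARS1 for asparagine (0.55 ± 0.05) and LARS1 for leucine (0.32 ± 0.06). The 7 cytosolic members that were not called had differences nearer to 0. KARS1 for lysine stood at 0.13 ± 0.05, VARS1 for valine at 0.31 ± 0.12, FARSB at 0.12 ± 0.08 and FARSA at -0.11 ± 0.09 (the subunits of the phenylalanine enzyme), QARS1 for glutamine at -0.01 ± 0.06, HARS1 for histidine at -0.04 ± 0.08 and RARS1 for arginine at -0.08 ± 0.05. Of these, VARS1 had the least certain value, with a 95% interval from 0.05 to 0.56.

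**Figure D1:**
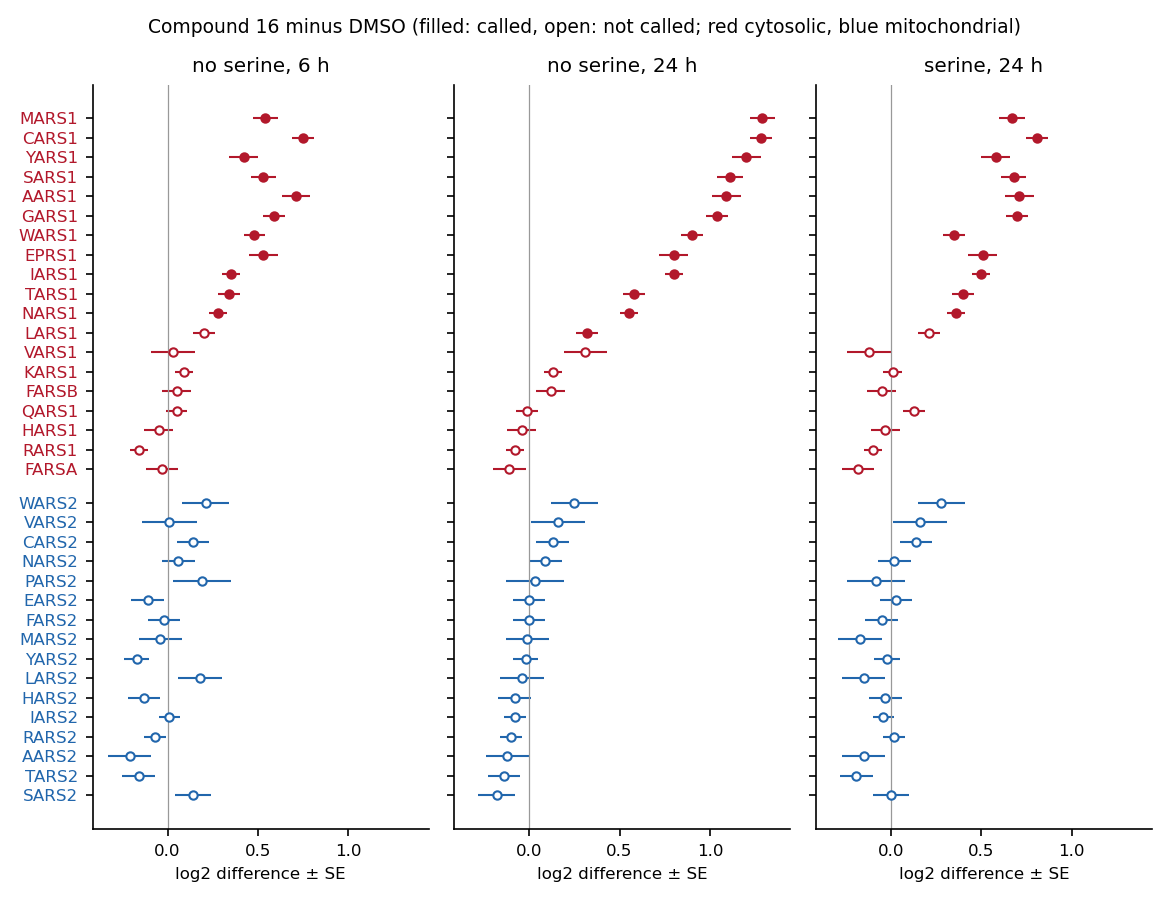
Log2 difference of compound 16 minus DMSO (x axis, ± SE) for each of the 35 synthetase genes (y axis), without serine at 6 h and 24 h and with serine at 24 h, 3 arrays a group; filled points were called. The called points are all cytosolic, and the mitochondrial points lie between -0.21 and 0.28.

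No mitochondrial partner of the 12 risen enzymes was called. Beside AARS1 at 1.09, AARS2 stood at -0.12 ± 0.12, and beside MARS1 at 1.29, MARS2 stood at -0.01 ± 0.12. Beside CARS1 at 1.28, CARS2 stood at 0.13 ± 0.09, and beside YARS1 at 1.20, YARS2 stood at -0.02 ± 0.07. Beside WARS1 at 0.90, WARS2 stood at 0.25 ± 0.13, the highest mitochondrial value of this comparison. EPRS1 at 0.80 has 2 mitochondrial counterparts, EARS2 at 0.00 ± 0.09 and PARS2 at 0.03 ± 0.16. The remaining pairs were IARS1 at 0.80 and IARS2 at -0.08 ± 0.06, TARS1 at 0.58 and TARS2 at -0.14 ± 0.09, NARS1 at 0.55 and NARS2 at 0.09 ± 0.09, and LARS1 at 0.32 and LARS2 at -0.04 ± 0.12. Among amino acids whose cytosolic enzyme was not called, RARS2 (-0.10), HARS2 (-0.08), FARS2 (0.00) and VARS2 (0.16) were not called either. The pairs were set side by side and the difference within a pair was not tested.

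A value that misses the threshold does not show that a gene stayed still, so the intervals matter. At 24 h without serine the 95% interval of 12 of the 16 mitochondrial members ended under 0.3, and the highest upper bound was 0.51, for WARS2. IARS2 read 11.21, 11.18 and 11.17 under compound 16 against 11.30, 11.28 and 11.21 in DMSO. KARS1 read 12.30, 12.27 and 12.28 against 12.12, 12.14 and 12.19. The KARS1 arrays did not overlap, but the step was 0.13 and was not called (limma adjusted p = 0.0877).

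Other probe sets of the same genes, which read the same RNA on the same arrays, were also counted at 24 h without serine. Their calls came from a separate fit over all 49386 probe sets, and the share of all probe sets called was not counted. Over genes, 2.97% were called higher and 4.08% lower in that comparison. The 12 called cytosolic members had 22 further probe sets, all with differences above 0, and 20 of these were called higher. The 16 mitochondrial members had 19 further probe sets, of which 0 were called and 9 lay above 0. Across the 7 uncalled cytosolic members, 0 of 12 further probe sets were called. At 6 h without serine, 16 of 20 further probe sets of the called members were called higher (1.49% over genes), and all 20 lay above 0. At 24 h with serine, 14 of 20 were called higher (0.746% over genes) and 19 lay above 0, with 0 of the 3 for WARS1 called. There, 1 of 14 further probe sets of uncalled cytosolic members, belonging to LARS1, was called higher.

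The rise was already present at 6 h without serine. Of the 19 cytosolic members 11 rose, where 1.49% of all genes were called higher and 1.23% lower, and 0 of 16 mitochondrial members were called. Class medians were 0.34 and 0.00, beside -0.01 over all genes. CARS1 read 10.48, 10.44 and 10.46 under compound 16 and 9.66, 9.65 and 9.82 in DMSO, a difference of 0.75 ± 0.06 (limma adjusted p = 1.22e-10). AARS1 read 10.60, 10.82 and 10.91 against 10.01, 10.07 and 10.13, a difference of 0.71 ± 0.08 (limma adjusted p = 6.08e-08). In both genes every compound array lay above every DMSO array. SARS1 rose by 0.53 ± 0.07, and the other called members lay between GARS1 at 0.59 ± 0.06 and NARS1 at 0.28 ± 0.05, with MARS1 at 0.54, EPRS1 at 0.53, WARS1 at 0.48, YARS1 at 0.42, IARS1 at 0.35 and TARS1 at 0.34. SARS2 stood at 0.14 ± 0.10 and KARS1 at 0.09 ± 0.05, neither called. EPRS1 alone of the called members with further probe sets had none of these called, and its other probe set stood at 0.11.

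With serine in the medium the rise was called at 24 h and not at 6 h. At 6 h with serine 0 of 35 members were called, where 0% of all genes were, although 1105 genes had an unadjusted limma p under 0.05. SARS1 read 10.24, 10.40 and 10.22 under compound 16 and 10.37, 10.20 and 10.08 in DMSO at that time, and the arrays overlapped. At 24 h with serine 11 of 19 cytosolic members rose, where 0.746% of all genes were called higher and 0.62% lower, and 0 of 16 mitochondrial members were called, with class medians of 0.36 and -0.02 beside 0.00 over all genes. Centring moved the split over all genes from 136 higher and 113 lower to 105 and 180, and the class counts were again 11 and 0. SARS1 then read 11.08, 11.01 and 10.95 under compound 16 and 10.27, 10.33 and 10.40 in DMSO. The groups were clearly separate, and the difference was 0.68 ± 0.07 (limma adjusted p = 1.9e-09). CARS1 rose by 0.81, AARS1 by 0.71, GARS1 by 0.70, MARS1 by 0.67, YARS1 by 0.58, EPRS1 by 0.51, IARS1 by 0.50, TARS1 by 0.40, NARS1 by 0.36 and WARS1 by 0.35. SARS2 stood at 0.00 ± 0.10 and KARS1 at 0.01 ± 0.05.

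The 11 genes called with serine at 24 h were the same 11 called without serine at 6 h, and LARS1 joined them without serine at 24 h. LARS1 stood at 0.32 there, beside 0.20 without serine at 6 h and 0.21 with serine at 24 h, which were not called. These 3 comparisons use no array in common, but their calls came from 1 fit with a shared estimate of each gene's spread. The 3 lists are therefore not independent. No called member of the 3 comparisons lost its call when any 1 array was left out. A fit on the 6 arrays of each comparison alone, which estimates the spread from far fewer arrays, called 7, 11 and 3 cytosolic members at 6 h without serine, 24 h without serine and 24 h with serine. WARS1 at 24 h with serine was also lost when all its probe sets were averaged (0.19, limma adjusted p = 0.0513).

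At the early times no member was called. Without serine 0 of 35 members were called at 0 h (0% of all genes) and 0 of 35 at 1.5 h (0.0822% of all genes). With serine 0 of 35 were called at 0 h (0% of all genes) and at 1.5 h (0% of all genes). The limma fits gave 1318, 808, 1029 and 614 genes with an unadjusted p under 0.05 in these comparisons. DDIT3, a transcription factor of the ATF4 response and no synthetase, was already higher by 1.19 ± 0.19 at 1.5 h without serine (limma adjusted p = 0.00146).

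Whether the compound's effect differed between the media was tested as an interaction, the difference without serine minus the difference with serine, which uses the same arrays as the separate comparisons. At 6 h, 9 of 19 cytosolic members had a larger rise without serine, where 0.614% of all genes were called higher and 0.274% lower, and 0 of 16 mitochondrial members were called. CARS1 led with 0.78 ± 0.09 (limma adjusted p = 7.59e-07), followed by GARS1 at 0.69, AARS1 at 0.61, EPRS1 at 0.48, MARS1 at 0.46, SARS1 at 0.46, WARS1 at 0.42, TARS1 at 0.41 and IARS1 at 0.36. At 24 h, 7 of 19 cytosolic members differed in the same direction, where 0.384% of all genes were called higher and 0.899% lower, and again 0 of 16 mitochondrial members. Centring moved the split over all genes at 24 h from 70 higher and 164 lower to 100 higher and about as many lower, and the cytosolic count was again 7. The called members were MARS1 at 0.62 ± 0.09, YARS1 at 0.62 ± 0.11, WARS1 at 0.55, CARS1 at 0.48, SARS1 at 0.43, GARS1 at 0.34 and IARS1 at 0.30. For these 7 members in the same order, levels without serine minus with serine under compound 16 at 24 h were 0.20, 0.18, 0.41, 0.09, 0.33, 0.10 and 0.18. In DMSO they were -0.41, -0.44, -0.15, -0.38, -0.10, -0.24 and -0.12, so lower DMSO levels without serine entered each interaction. AARS1, at 0.38 ± 0.11, was not called at 24 h (limma adjusted p = 0.0954). At 0 h (0% of all genes) and 1.5 h (0.0164% of all genes) 0 of 35 members were called, with 1070 and 775 genes at an unadjusted limma p under 0.05. EPRS1 at 6 h and GARS1 and IARS1 at 24 h lost their calls when single arrays were left out, and the fit on the arrays of the comparison alone called 2 members at 6 h and 3 at 24 h. Without array 57 of the plusSer 6 h compound 16 group, WARS2 was called as well at 6 h (1 mitochondrial member).

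The steps from 6 to 24 h differed between the arms as levels, and the differences between the steps were not tested. Without serine, the DMSO arm fell: between 6 and 24 h, 12 of 19 cytosolic members decreased (7.35% of all genes were called lower and 4.47% higher), with a class median of -0.32 beside -0.01 over all genes. Centring turned the split over all genes from 816 higher and 1340 lower to 1244 and 814, while 11 cytosolic members were then called lower and 0 higher. MARS1 read 10.70, 10.68 and 10.68 at 6 h in DMSO without serine and 9.80, 9.74 and 9.84 at 24 h, a difference of -0.89 ± 0.07 (limma adjusted p = 1.4e-12). All 3 arrays at 24 h lay below the mean of 10.50 before the medium change. CARS1 fell by 0.91, YARS1 by 0.75, GARS1 by 0.74, TARS1 by 0.55, AARS1 by 0.52, WARS1 by 0.52, VARS1 by 0.38, SARS1 by 0.34 and IARS1 by 0.32, followed by EPRS1 and NARS1. VARS1 lost its call when single arrays were left out.

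Under compound 16 without serine the cytosolic members had a class median step of -0.09. SARS1 went from 11.13, 11.11 and 11.05 at 6 h to 11.37, 11.36 and 11.30 at 24 h, the only called rise among the cytosolic members (0.25 ± 0.07, limma adjusted p = 0.0096, 3.33% of all genes called higher). CARS1 (-0.38), TARS1 (-0.32) and GARS1 (-0.30) decreased, where 7.23% of all genes were called lower. When arrays were centred on their medians, the split over all genes turned from 607 higher and 1319 lower to 1664 and 662, the called split over the class moved from 1 higher and 3 lower to 3 and 3, and the class median moved to 0.00. SARS1 lost its call when single arrays were left out, and the fit on the arrays of the comparison alone called 1 cytosolic member.

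With serine, the class median step was -0.05 in the DMSO arm and 0.34 in the compound arm. In DMSO between 6 and 24 h, 5 of 19 cytosolic members fell (9.67% of all genes were called lower, 5.78% higher), namely FARSB (-0.39), RARS1 (-0.30), HARS1 (-0.26), WARS1 (-0.24) and IARS1 (-0.16). Centring the arrays changed this split to 1 higher and 3 lower, beside a turn over all genes from 1055 higher and 1763 lower to 1611 and 1145, and the fit on the arrays of the comparison alone called 1. Under compound 16 with serine over the same interval, 12 of 19 rose and 5 fell, where 8.41% of all genes were called higher and 11.6% lower. CARS1 went from 8.98, 9.01 and 9.07 to 9.97, 9.97 and 10.02, a rise of 0.97 ± 0.06 (limma adjusted p = 4.29e-14). GARS1 rose by 0.76, AARS1 by 0.74, SARS1 by 0.73, MARS1 by 0.54, EPRS1 by 0.43, TARS1 by 0.42 and YARS1 by 0.42, with smaller steps in NARS1, IARS1, LARS1 and QARS1. LARS1 and QARS1 lost their calls when single arrays were left out, and QARS1 also with all its probe sets averaged (0.10, limma adjusted p = 0.334). FARSA (-0.61), VARS1 (-0.52), FARSB (-0.49), RARS1 (-0.45) and HARS1 (-0.31) went the opposite way, and none of these 5 was called in any comparison of compound 16 with DMSO.

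**Figure D2:**
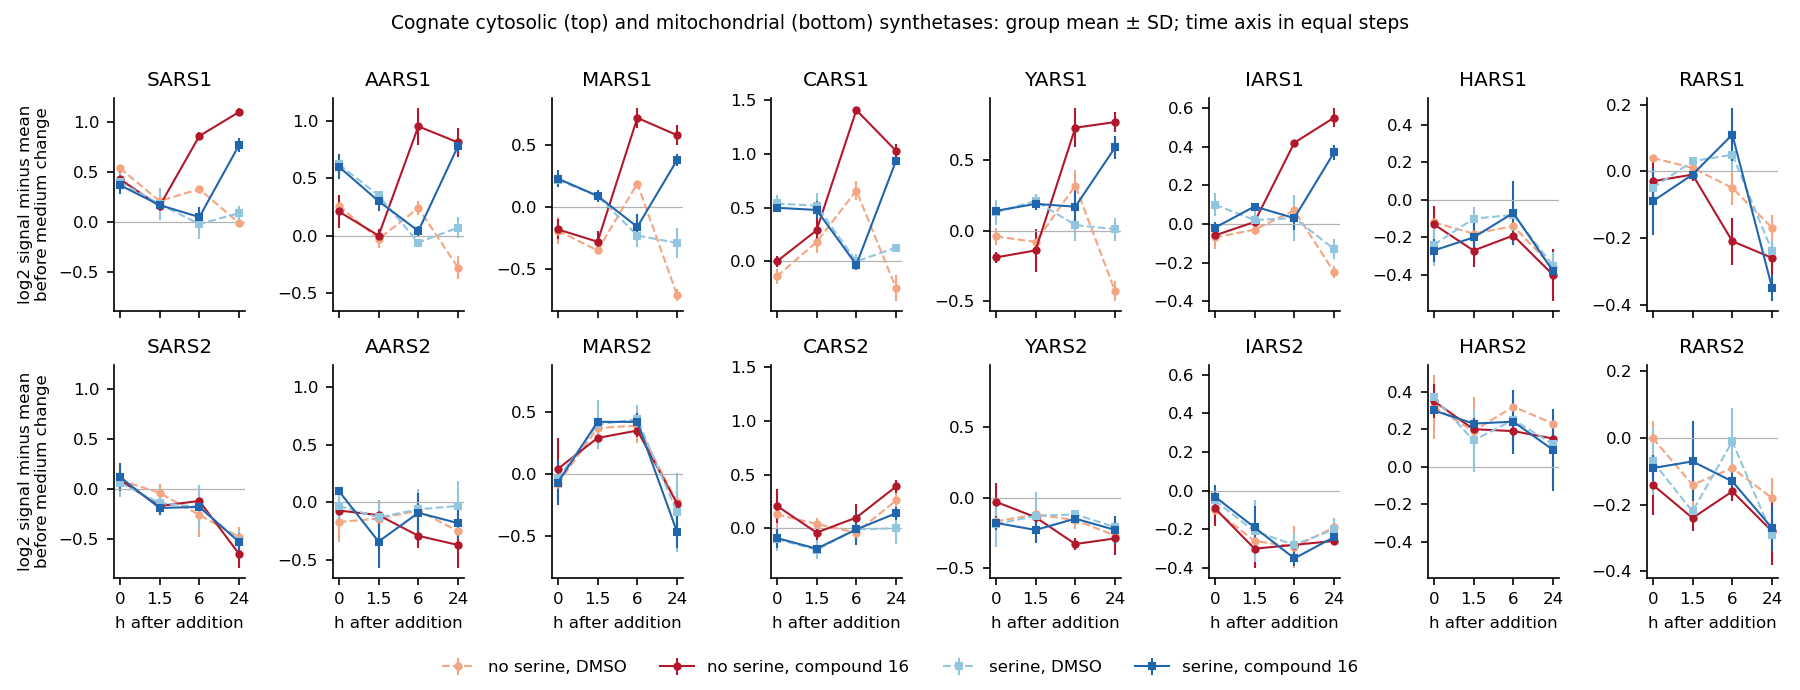
Group mean log2 signal minus the mean before the medium change (y axis, error bars are SDs over 3 arrays, 2 for serine DMSO at 1.5 h) against hours after addition (x axis, equal steps) in the 4 arms, for 8 cognate pairs. The cytosolic genes of the first 6 pairs separate between compound 16 and DMSO from 6 h without serine and at 24 h with serine, and MARS2 is lower at 24 h than at 6 h in all 4 arms.

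Some mitochondrial members did move between 6 and 24 h. MARS2 read 8.76, 8.48 and 8.68 at 6 h and 8.02, 7.89 and 8.15 at 24 h in DMSO without serine, a difference of -0.62 ± 0.12 (limma adjusted p = 0.000379). It also decreased under compound 16 without serine (-0.59), in DMSO with serine (-0.74) and under compound 16 with serine (-0.89). EARS2 fell in DMSO without serine (-0.38) and with serine (-0.58) and under compound 16 with serine (-0.42), while SARS2 fell under compound 16 without serine (-0.53) and in both arms with serine (-0.34 and -0.35). RARS2 fell in DMSO with serine (-0.28), LARS2 fell under compound 16 with serine (-0.53), and CARS2 rose in both arms without serine (0.29 and 0.28). TARS2 rose in DMSO with serine (0.30) and WARS2 under compound 16 with serine (0.50). In all, 3, 3, 5 and 5 of 16 mitochondrial members were called in either direction in DMSO and compound 16 without serine and in DMSO and compound 16 with serine, beside 11.8%, 10.6%, 15.5% and 20% of all genes. Calls for CARS2, EARS2, SARS2, TARS2 and WARS2 were lost in at least 1 of these comparisons when single arrays were left out. The count was 1 without the lowest-numbered array of the minusSer 24 h DMSO group, and, in DMSO with serine, 3 without array 60 or 61 of the 6 h group or array 96 of the 24 h group. With all probe sets averaged, MARS2 (-0.20) and SARS2 (-0.33) were not called under compound 16 without serine, nor CARS2 (0.15) in DMSO without serine. With serine, that averaging also lost SARS2 (-0.27) and TARS2 (0.2) in DMSO and SARS2 (-0.21) under compound 16. The fit on the arrays of each comparison alone called 1, 2, 2 and 3 mitochondrial members.

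Between media in the DMSO arms, 7, 5, 8 and 3 of 19 cytosolic members were called at 0, 1.5, 6 and 24 h, lower at 0, 1.5 and 24 h and higher at 6 h. The change of this difference between times was not tested. At 0 h in DMSO, that is 24 h after the medium change, 7 of 19 were lower without serine than with it (2.91% of all genes were called lower). CARS1 read 8.84, 8.90 and 8.99 without serine and 9.64, 9.63 and 9.49 with it, a difference of -0.67 ± 0.06 (limma adjusted p = 8.28e-09). MARS1 stood at -0.41, GARS1 at -0.37, AARS1 at -0.36, TARS1 at -0.34, FARSB at -0.33 and IARS1 at -0.17, while SARS1 stood at 0.14 ± 0.07 and was not called (limma adjusted p = 0.209). FARSB lost its call without array 13 of the plusSer 0 h DMSO group and stood at -0.03 with all its probe sets averaged (limma adjusted p = 0.761), and IARS1 lost its call without any of 4 single arrays. At 1.5 h the lower members were MARS1 (-0.43), AARS1 (-0.38), CARS1 (-0.34), GARS1 (-0.32) and TARS1 (-0.29), 5 of 19 where 0.927% of all genes were called lower, and SARS1 stood at 0.03. Averaged over all its probe sets, MARS1 stood at -0.06 (limma adjusted p = 0.844), and 2 of its dimmer probe sets read 0.32 and 0.81. Centring moved the split over all genes at 1.5 h from 191 higher and 169 lower to 82 and 395. The 1.5 h count fell to 1 without array 50 and to 2 without array 49 of the plusSer DMSO group, which has only those 2 arrays, and to 3 without array 56 of the minusSer DMSO group.

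At 6 h in DMSO 8 of 19 cytosolic members were higher without serine, where 1.75% of all genes were called higher. Centring moved the split over all genes from 319 higher and 261 lower to 249 and 314, and the cytosolic count to 5 higher. CARS1 read 9.66, 9.65 and 9.82 without serine and 9.10, 9.08 and 8.96 with it, a difference of 0.66 ± 0.06 (limma adjusted p = 8.33e-09). SARS1 read 10.57, 10.56 and 10.57 against 10.37, 10.20 and 10.08, and every array without serine lay above every array with it (0.35 ± 0.07, limma adjusted p = 0.000829). GARS1 stood at 0.47, MARS1 at 0.42, TARS1 at 0.34, AARS1 at 0.30, YARS1 at 0.28 and NARS1 at 0.21, of which AARS1, NARS1 and YARS1 lost their calls when single arrays were left out. The count was 5 without array 60 or array 62 of the plusSer DMSO group or array 67 of the minusSer DMSO group. At 24 h YARS1 (-0.44), MARS1 (-0.41) and CARS1 (-0.38) were lower without serine, 3 of 19 where 0.0713% of all genes were called lower. YARS1 lost its call without array 98 of the plusSer DMSO group or the lowest-numbered array of the minusSer DMSO group. Centring moved the split over all genes at 24 h from 16 higher and 13 lower to 8 and 20. The mitochondrial class had 0 of 16 called at each of the 4 times, and its medians were 0.03, 0.03, -0.03 and 0.01, beside -0.11, -0.07, 0.15 and -0.10 for the cytosolic class. A fit on the arrays of each comparison alone called 0, 0, 1 and 0 cytosolic members at 0, 1.5, 6 and 24 h.

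**Figure D3:**
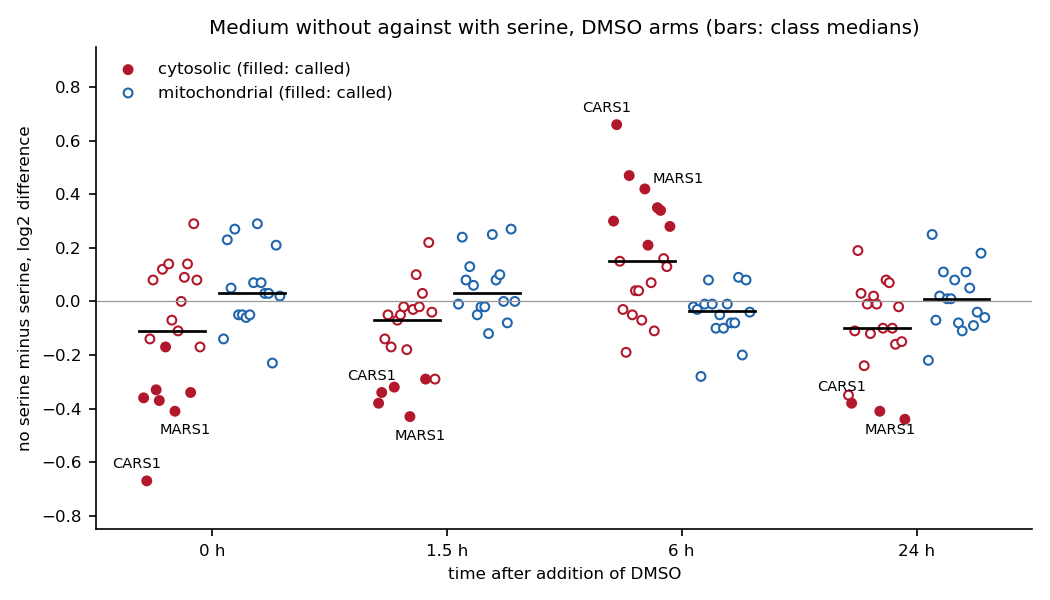
Log2 difference of medium without serine minus medium with serine in the DMSO arms (y axis) at 4 times after addition (x axis); each point is 1 gene, filled where called, and bars are class medians. The cytosolic median goes from -0.11 at 0 h to 0.15 at 6 h and -0.10 at 24 h.

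Under compound 16 the cytosolic median of the contrast between media was 0.49 at 6 h and 0.14 at 24 h. At 6 h 11 of 19 cytosolic members were higher without serine, where 6.22% of all genes were called higher, with CARS1 at 1.44 ± 0.06, GARS1 at 1.16, AARS1 at 0.91, MARS1 at 0.88, SARS1 at 0.81, TARS1 at 0.75, EPRS1 at 0.64, YARS1 at 0.56, WARS1 at 0.55, NARS1 at 0.49 and IARS1 at 0.39. RARS1 alone was called lower (-0.32 ± 0.05, limma adjusted p = 1.61e-05), where 5.54% of all genes were. Centring the arrays gave 11 higher and 3 lower in the class, and moved the split over all genes from 1135 higher and 1011 lower to 872 and 1342. WARS2 was the only mitochondrial member called (0.72 ± 0.13, limma adjusted p = 7.05e-05). It read 7.48, 7.56 and 7.62 without serine and 7.02, 6.50 and 6.96 with serine, and its 3 other probe sets stood at 0.20, 0.21 and 0.14, none called. Centring the arrays gave 1 mitochondrial member higher and 1 lower. By 24 h 3 of 19 cytosolic members were higher, WARS1 at 0.41, SARS1 at 0.33 and IARS1 at 0.18, where 1.85% of all genes were called higher, and 0 of 16 mitochondrial members were called. Centring moved the split over all genes from 337 higher and 463 lower to 509 and 365, and the cytosolic count to 5 higher. IARS1 lost its call when single arrays were left out, and a fit on the arrays of the comparison alone called 0.

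The change of medium was also compared, before any compound was present, and many genes of all kinds were called. Relative to the starting cells, 3 of 19 cytosolic members were higher and 4 lower after 24 h without serine, where 16% of all genes were called higher and 12.6% lower. The share of members called higher (3 of 19 cytosolic and 3 of 16 mitochondrial) was near that of all genes and is no result about them. SARS1 read 10.78, 10.77 and 10.80 against 10.18, 10.20 and 10.33 before the change, a rise of 0.55 ± 0.07 (limma adjusted p = 1.76e-08). QARS1 (0.37) and AARS1 (0.26) also rose, and FARSB (-0.66), TARS1 (-0.30), GARS1 (-0.20) and MARS1 (-0.19) fell, although the mean of all MARS1 probe sets stood at 0.04. The cytosolic count was 4 without array 20 of the minusSer 0 h DMSO group. Of the mitochondrial members PARS2 (0.76), WARS2 (0.45) and HARS2 (0.32) rose. WARS2 lost its call without array 3 of the starting group. HARS2 lost its call without array 20 of the minusSer 0 h DMSO group and in the fit on the arrays of the comparison alone. Their other probe sets stood at 0.02 for PARS2, 0.38 for HARS2 and 0.23, 0.21 and -0.22 for WARS2. PARS2 read 6.31, 6.16 and 6.26 against 5.42, 5.39 and 5.65, with no overlap, at the dim end of the members.

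With serine 7 of 19 cytosolic members rose after the change of medium and 4 fell, where 12.3% of all genes were called higher and 9.46% lower. The risen were AARS1 (0.62), CARS1 (0.54), SARS1 (0.40), QARS1 (0.37), EPRS1 (0.28), MARS1 (0.23) and GARS1 (0.17), and the fallen were VARS1 (-0.44), FARSB (-0.33), FARSA (-0.26) and HARS1 (-0.24). Averaging all probe sets turned the sign of EPRS1 (-0.11) and VARS1 (0.03). HARS2 (0.38) and PARS2 (0.46) rose in the mitochondrial class, 2 of 16, a share near that of all genes. The cytosolic count was 7 without array 3 of the starting group, and the mitochondrial count was 1 without array 1 or 2 of the starting group or array 15 of the plusSer 0 h DMSO group. Centring the arrays gave 2 higher and 8 lower cytosolic members without serine, and 4 higher and 5 lower with serine. It gave 3 higher and 2 lower mitochondrial members without serine, and 1 higher and 2 lower with serine. Over all genes it turned the split from 2922 higher and 2297 lower to 2189 and 3288 without serine, and from 2237 and 1725 to 1430 and 2657 with serine.

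Over all 17 groups the cytosolic class lay farthest from its average in the groups named next. For each array the median over the class of the signal minus each gene's mean over the 50 arrays was taken. The cytosolic value was 0.354 ± 0.010 (SD, n = 3) at 6 h and 0.326 ± 0.044 (SD, n = 3) at 24 h under compound 16 without serine, and 0.199 ± 0.036 (SD, n = 3) at 24 h under compound 16 with serine. It was lowest in DMSO at 24 h, at -0.293 ± 0.006 (SD, n = 3) without serine and -0.185 ± 0.042 (SD, n = 3) with it. The cytosolic means of the remaining groups lay between -0.116 (minusSer 1.5 h DMSO) and 0.06 (plusSer 0 h compound 16). Group means of the mitochondrial value lay between -0.138 and 0.143, and single arrays between -0.235 and 0.215. The highest group mean was at 0 h in DMSO without serine and the lowest at 24 h under compound 16 without serine. The mitochondrial group means lay between 0.083 and 0.143 at 0 h. At 24 h they were -0.120 in DMSO without serine, -0.095 in DMSO with serine and -0.097 under compound 16 with serine. The gap between the classes within an array was widest at 24 h under compound 16 without serine (0.463 ± 0.132, SD, n = 3) and most negative at 0 h in DMSO without serine (-0.194 ± 0.103, SD, n = 3).

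**Figure D4:**
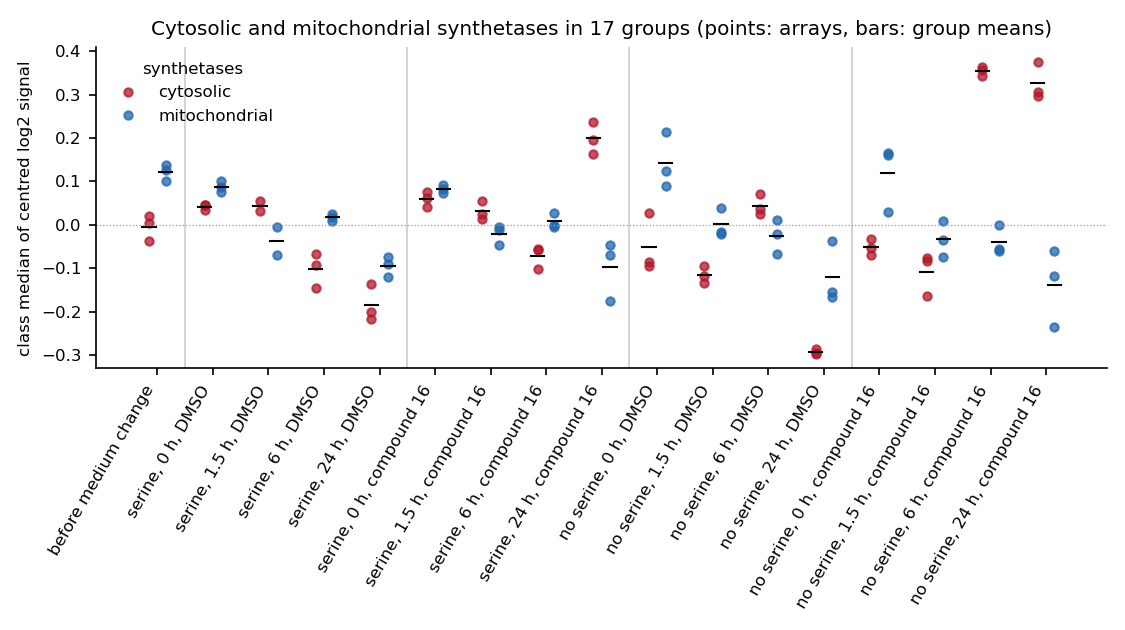
Median over each class of the centred log2 signal (y axis) in the 17 groups (x axis); points are arrays and bars are group means. The 3 compound 16 groups at 6 h and 24 h without serine and 24 h with serine lie above the other cytosolic values, at means of 0.354, 0.326 and 0.199.

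Single genes followed the same groups or did not. Over the 17 group means, Pearson's r with ASNS lay between 0.79 and 0.94 for the 11 cytosolic genes called at 6 h without serine, with CARS1 highest (0.94) and WARS1 lowest (0.79). The other cytosolic members lay between -0.49 for RARS1 and 0.26 for LARS1, and the mitochondrial members between -0.57 for TARS2 and 0.43 for WARS2. The 11 genes were chosen by a call between groups that are among the 17. The 2 groups farthest from the median of ASNS were compound 16 without serine at 6 h and at 24 h. Without them, r over the other 15 lay between 0.56 (WARS1) and 0.90 (CARS1) for the 11 genes, with SARS1 at 0.74 and TARS1 at 0.76. It lay between -0.56 (FARSA) and 0.34 (QARS1) for the other cytosolic members, and between -0.47 (TARS2) and 0.32 (VARS2) for the mitochondrial ones. The compound 16 group with serine at 24 h, where the same 11 genes were called, remained among the 15. The r over 15 groups is therefore not free of the choice of genes either. All these r values are descriptions over groups that share medium and time. CARS1 had the widest range of group means (1.66), from minusSer 24 h DMSO to minusSer 6 h compound 16, and KARS1 the narrowest of the cytosolic class (0.24).

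**Figure D5:**
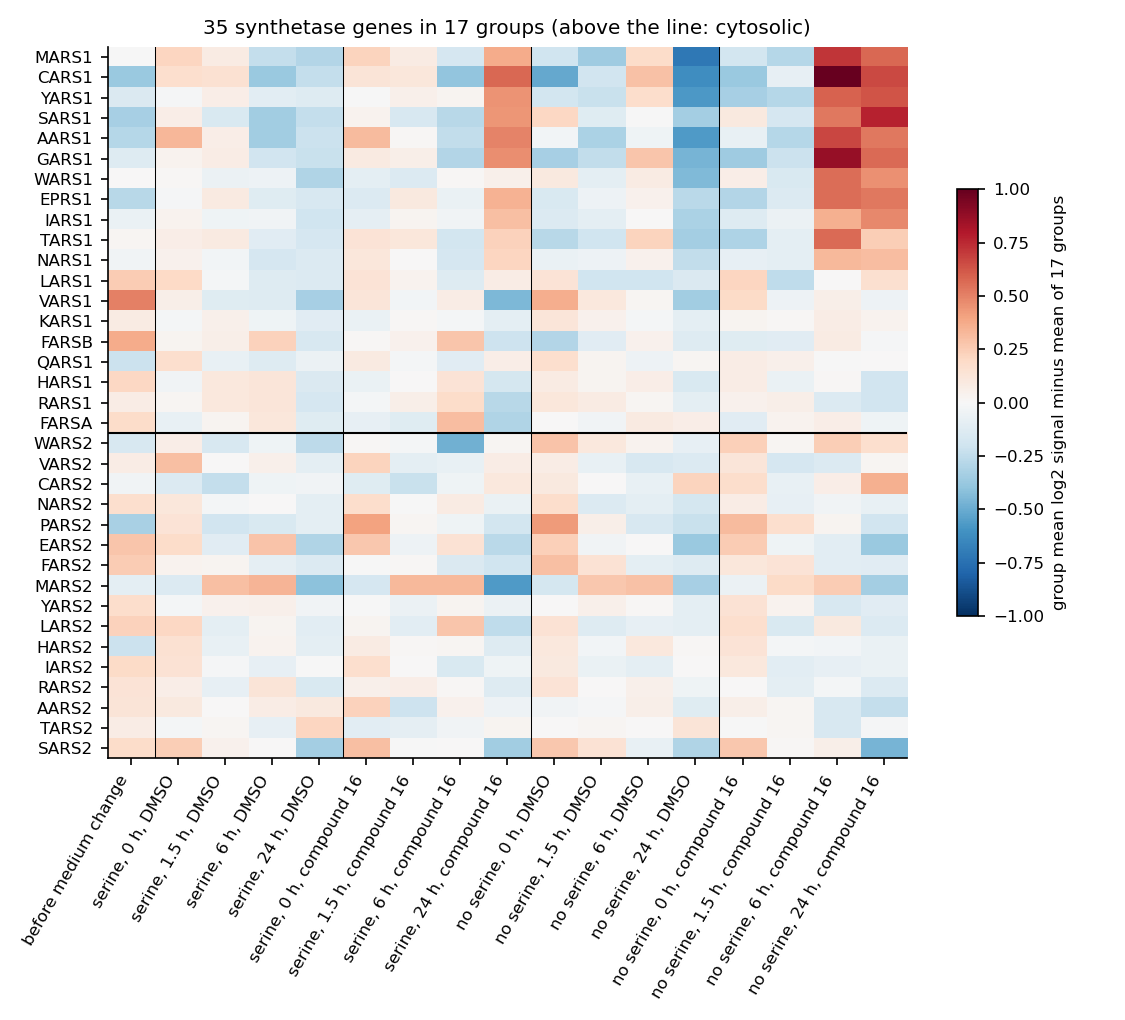
Group mean log2 signal minus the mean of the 17 group means (colour) for 35 genes (rows, cytosolic above the line) in 17 groups (columns). The upper 11 genes are above their means under compound 16 at 6 h and 24 h without serine and 24 h with serine, where WARS1 is only slightly so, and MARS2 is lower in the 24 h columns of all 4 arms.

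Properties the class rule did not use were set beside the calls. Of the 7 cytosolic members in the multi-synthetase complex, an assembly held together by scaffold proteins, 4 rose at 24 h without serine (EPRS1, IARS1, LARS1 and MARS1), and of the 12 outside it 8 rose. Over all genes 2.97% were called higher and 4.08% lower in that comparison. By catalytic fold, 6 of 9 members of class I and 5 of 9 of class II were called, EPRS1 with both folds left out. The promoter element printed at the start was present in 7 of the 10 called cytosolic genes with a promoter entry (70.0%) and in 0 of the 6 uncalled ones. Its share was 3.6% of the tested genes with a promoter. With only the bases before the start, 3 of the 10 called genes kept the element, beside 3.15% of the tested genes. A gene was counted when any of its promoters matched, and the 10 called genes had 15 promoters and the 6 uncalled ones 6. CARS1, GARS1 and TARS1 each matched in 1 of 2 promoters. EPRS1, SARS1 and WARS1 rose without a match in the window, and YARS2, with a match, was not called.

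Genes that work with the synthetases were counted in the same way. Of 11 genes for the uncharged tRNA signal and the ATF4 arm, 9 rose at 6 h without serine, at 24 h without serine and at 24 h with serine, beside 1.49%, 2.97% and 0.746% of all genes. ASNS rose by 0.88 ± 0.07, 1.90 ± 0.07 and 1.35 ± 0.07 in these comparisons (limma adjusted p = 2.73e-12, 1.12e-22 and 1.53e-17). TRIB3, an ATF4 target, rose by 1.85 at 6 h and 1.65 at 24 h without serine, DDIT3 by 1.91 and 1.26, and PHGDH, the first enzyme of serine synthesis, by 0.63 and 1.60. The kinase EIF2AK4 (-0.06 ± 0.10) and its partner GCN1 (-0.09 ± 0.06) were not called at 24 h without serine.

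Other genes of mitochondrial translation were counted beside them. Of 77 mitochondrial ribosomal proteins, 0 rose and 4 fell at 6 h without serine, 6 rose and 2 fell at 24 h without serine, and 0 were called at 24 h with serine. Over all genes 1.49% rose and 1.23% fell at 6 h and 2.97% rose and 4.08% fell at 24 h without serine, the background for the counts of 1 to 6 genes given here. At 24 h without serine MRPL21 stood at 0.24 ± 0.05, MRPS35 at 0.18 ± 0.04 and MRPS6 at -0.32 ± 0.08. GFM1, a mitochondrial elongation factor, was the only 1 of 12 mitochondrial translation factors called (0.29 ± 0.06, limma adjusted p = 0.00117). On the cytosolic side EEF1B2, the nucleotide exchange subunit of elongation factor 1, rose by 0.16 ± 0.04 as 1 of 4 measured subunits. DTD1, which removes D-amino acids from tRNA, rose by 0.36 ± 0.07, and TRNT1, which adds the CCA end that synthetases charge, by 0.28 ± 0.08, as 2 of 4 genes of tRNA proofreading and recycling. Of the 5 genes that turn seryl-tRNA into selenocysteinyl-tRNA and use it, 0 were called, and the scaffold protein AIMP1 stood at 0.11, not called.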

How the data were processed

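Log2 expression values of 49386 probe sets on 50 arrays were used as deposited by the authors. The submitters' processing notes list RMA, a method of background correction, quantile normalization and probe summary, and limma, without versions, settings or roles. Probe sets with 1 gene symbol (45253) were kept, 1327 with several symbols were left out, control probe sets dropped, and 1 probe set per gene, the one with the highest mean, gave 18239 genes, with no filter on low values. Linear models over all 17 groups (limma 3.58.1 in R 4.3.3, 33 residual degrees of freedom) tested 24 contrasts of group means, adjusted by the Benjamini-Hochberg method over all genes of a contrast. Fitting all arrays together lets groups of 2 or 3 share 1 estimate of the spread. The fit was checked on simulated data. Scan dates and slides were not used here. Titles number the arrays in 1 series that runs in blocks by time and pairs nothing. No array pair was identical, and no column lacked a sample. Members, lists and tests were chosen with earlier results of these data known. The rule for named genes kept SARS1, SARS2, GARS1, KARS1 and ASNS, per comparison up to 10 called members of each class with the largest differences, called members opposite to their class, cognate pairs with a call at 24 h without serine, and up to 3 called genes of each other list. MARS2, RARS1, IARS2 and other members named beyond this rule were chosen after their values were seen. Alternatives were another quantile normalization, centring, the mean of all probe sets, leaving out dim genes, another prior, fits on the compared arrays alone and leaving out each array. Planned protein features were not run. Promoters came from RefSeq for GRCh38.p14.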

Additional observations from a re-analysis of the deposited data

Results flagged for a closer look

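The effect of compound 16 differed between the media in 9 cytosolic synthetases at 6 h, by an interaction test in limma. The difference without serine minus that with serine was 0.61 for AARS1, 0.78 for CARS1, 0.48 for EPRS1, 0.69 for GARS1, 0.36 for IARS1, 0.46 for MARS1, 0.46 for SARS1, 0.41 for TARS1 and 0.42 for WARS1. At 24 h it differed in 7, with 0.48 for CARS1, 0.34 for GARS1, 0.30 for IARS1, 0.62 for MARS1, 0.43 for SARS1, 0.55 for WARS1 and 0.62 for YARS1. Each of these 7 values combines a higher group mean without serine under compound 16 and a lower group mean without serine in DMSO.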

How the results depend on the processing

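Every count below is of called members. At 6 and 24 h without serine and 24 h with serine, the cytosolic counts of compound 16 against DMSO stayed within 1.5 times of the main count, and the mitochondrial counts stayed at 0, under every setting except the fit on the arrays of the comparison alone, which gave 7 (6 h without serine) and 3 (24 h with serine) cytosolic members. That fit, which has fewer residual degrees of freedom, also gave cytosolic counts of 2 and 3 for the interaction at 6 and 24 h, 0, 0, 1 and 0 for serine lack in DMSO at 0, 1.5, 6 and 24 h, 0 for serine lack under compound 16 at 24 h, 4 for the medium change without serine, and 1 and 1 for 24 h minus 6 h under compound 16 without serine and in DMSO with serine. Its mitochondrial counts were 1 for the medium change with serine and 1, 2 and 3 for 24 h minus 6 h in DMSO without serine, DMSO with serine and compound 16 with serine.

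Leaving out dim genes gave 1 mitochondrial member for the interaction at 6 h and 1 for serine lack in DMSO at 0 h, 2 for serine lack under compound 16 at 6 h and 4 for the medium change with serine, and 6 and 7 cytosolic members for serine lack under compound 16 at 24 h and for 24 h minus 6 h under compound 16 without serine. Centring gave 1, 2 and 5 mitochondrial members for serine lack in DMSO at 0 h, under compound 16 at 6 h and for the medium change without serine, and 5 and 5 cytosolic members for serine lack in DMSO at 6 h and under compound 16 at 24 h. The other prior gave 1 mitochondrial member at 0 h and 5 and 5 cytosolic members at 24 h for serine lack in DMSO and under compound 16. A second quantile normalization gave 3 mitochondrial members for serine lack under compound 16 at 6 h. The mean of all probe sets gave 5 and 6 cytosolic and, under compound 16, 2 mitochondrial members for serine lack at 24 h in DMSO and under compound 16, and 8 and 8 cytosolic members for 24 h minus 6 h under compound 16 without serine and in DMSO with serine.

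Signs turned for MARS1 without serine (0.04), EPRS1 (-0.11) and VARS1 (0.03) with serine, all after the medium change and with probe sets averaged. Class medians near 0 also turned: cytosolic medians under centring to 0.00 (medium change with serine), 0.00 (24 h minus 6 h, compound 16 without serine) and 0.01 (DMSO with serine), and the mitochondrial median under compound 16 without serine to 0.01 (quantile) and 0.03 (centring). The cause was not tested.

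With 1 array left out, cytosolic counts ranged from 4 to 7 and 7 to 10 for the medium change without and with serine, and from 1 to 5 and 5 to 7 for serine lack in DMSO at 1.5 and 6 h. Mitochondrial counts ranged from 1 to 3 and 3 to 5 for 24 h minus 6 h in DMSO without and with serine, 0 to 1 for the interaction at 6 h, and 1 to 2 for the medium change with serine. No paired analysis was possible because the title numbers run through the series and no number is shared between groups. The dimmer mitochondrial probe sets limit how small a change could be called.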
